A study of Mus musculus with 8 samples.

Results

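The genes described here are the 10 that write, maintain, erase or feed the regulation of DNA methylation in mouse leukaemia cells: Dnmt1, Uhrf1, Dnmt3a, Dnmt3b, Dnmt3l, Tet1, Tet2, Tet3, Idh1 and Idh2. They were taken by name from the 47069 genes counted, of which 14263 were tested, and each of the 10 passed the filter on low counts. RNA was sequenced from leukaemia cells of bone marrow that carry MLL-AF9, a fusion oncogene of acute myeloid leukaemia, and TetO-Klf4, a transgene from which doxycycline switches on the transcription factor KLF4. The cells were sorted as GFP+ from leukaemic mice of a strain that the labels spell C57BL/7. The groups were 0h, 6h, 12h and 24h, with 2 libraries each, and every library carries both MLL-AF9 and TetO-Klf4. The labels do not say what event the hours count from, how many mice gave cells, or how old they were. Nothing says that 2 libraries of a time point came from separate mice, so p-values cover the spread between libraries, in which technical variation cannot be told from biological variation. Cells without the transgene but with doxycycline were not analysed here.

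DNA methylation is the addition of a methyl group to cytosine, mostly where it stands before guanine (CpG). DNMT3A and DNMT3B place new marks, DNMT3L has no catalytic activity of its own and stimulates them, and DNMT1, guided by UHRF1, copies the marks onto the new strand after DNA replication. TET enzymes oxidise methylated cytosine in a reaction that uses 2-oxoglutarate, which IDH1 and IDH2 produce from isocitrate. In human acute myeloid leukaemia, DNMT3A, TET2, IDH1 and IDH2 are among the recurrently mutated genes. RNA was measured here, and DNA methylation, protein and enzyme activity were not.

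Dnmt3l was the member with the largest called change: it stood at 13.8 ± 0.53 CPM at 24h, against 27.1 ± 1.21 CPM at 0h (SD, n = 2 each), a 1.96-fold lower level. Idh1 also fell, to 146 ± 7.37 CPM at 24h, against 199 ± 4.78 CPM at 0h. CPM are counts per 1000000 gene counts of a library, with libraries brought to one scale by TMM. Dnmt3a and Tet3 were called higher at 24h by 0.24 and 0.17 on the log2 scale, but with a correction for GC content and exon length their differences were -0.00 and -0.11. Dnmt1, Dnmt3b, Tet1, Tet2 and Idh2 were not called at any time against 0h.

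The libraries held 20394546 to 26041347 gene counts, and 18887 to 20599 genes had a count. A count of 0 would allow up to 0.115 to 0.147 CPM, a limit of 3 counts that covers counting error only. Reads counted to no gene made up 5.25% to 5.697% of a library at 0h, 5.813% to 6.599% at 6h, 8.311% to 8.95% at 12h and 9.036% to 9.272% at 24h, and the part of this rise in any result was not tested. Klf4, the induced gene, stood at 152 and 151 CPM (6h), 115 and 111 CPM (12h) and 76.9 and 78.8 CPM (24h), against 2.71 and 4.42 CPM (0h). Reads of the transgene and of the cells' own Klf4 were not separated. All 9 markers of this leukaemia and of granulocyte-monocyte progenitors (Ptprc, Cd34, Kit, Mpo, Elane, Ms4a3, Hoxa9, Meis1 and Itgam) were detected at every time. Their summed level was 1380 to 1390 CPM at 24h, against 1560 to 1600 CPM at 0h. The T cell markers summed to at most 0.276 CPM, with Cd3e and Cd3g at 0 counts, and Ms4a1 and Pax5 of the B cell list were at 0 counts in every library. The B cell list summed to 8.55 to 12.2 CPM, nearly all of it Cd79b, the erythroid list to 1.86 to 2.86 CPM, and the stroma and endothelium list to 139 to 187 CPM, nearly all of it Pecam1, with Cdh5 at 0 to 11 counts.

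Promoter sequence is shown for the pair called lower at each later time (Dnmt3l and Idh1) and for the pair that acts at the replication fork (Dnmt1 and Uhrf1), since the induced protein is a DNA-binding factor. RefSeq lists 18 promoter windows of 300 bases for the 10 genes on build GRCm38.p6, each placed around an annotated start. Each was searched on both strands for GGGNGTGG, a GC-rich box of the kind that KLF factors bind, and for TTTNGCGC, a box of the kind that E2F factors of the cell cycle bind. The KLF box was in 6 of the 18 windows and the E2F box in 2 of them. In all 32851 promoter windows of the same length the shares were 17.62% and 1.38%. Below, capitals mark the matches, and each sequence is read 5′ to 3′ on the gene's own strand.
Dnmt3l, chr10:78049592-78049891, plus strand: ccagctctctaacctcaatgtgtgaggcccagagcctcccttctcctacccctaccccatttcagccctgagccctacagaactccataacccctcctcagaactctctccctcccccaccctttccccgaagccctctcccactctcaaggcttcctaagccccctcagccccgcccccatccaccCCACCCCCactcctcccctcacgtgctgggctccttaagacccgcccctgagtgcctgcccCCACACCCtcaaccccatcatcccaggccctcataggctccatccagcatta
Dnmt3l, chr10:78055085-78055384, plus strand: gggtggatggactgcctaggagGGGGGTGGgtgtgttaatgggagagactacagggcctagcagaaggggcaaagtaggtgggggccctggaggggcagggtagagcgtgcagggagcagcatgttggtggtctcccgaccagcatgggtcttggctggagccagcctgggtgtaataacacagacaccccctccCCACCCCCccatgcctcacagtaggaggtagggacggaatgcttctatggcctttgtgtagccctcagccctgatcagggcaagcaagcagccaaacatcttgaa
Idh1, chr1:65186430-65186729, minus strand: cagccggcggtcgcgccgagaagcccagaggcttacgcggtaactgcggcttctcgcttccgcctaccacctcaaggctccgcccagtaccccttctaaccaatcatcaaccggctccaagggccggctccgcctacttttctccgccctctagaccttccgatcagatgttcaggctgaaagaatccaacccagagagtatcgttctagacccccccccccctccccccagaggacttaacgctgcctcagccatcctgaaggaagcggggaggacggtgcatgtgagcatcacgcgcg
Idh1, chr1:65179093-65179392, minus strand: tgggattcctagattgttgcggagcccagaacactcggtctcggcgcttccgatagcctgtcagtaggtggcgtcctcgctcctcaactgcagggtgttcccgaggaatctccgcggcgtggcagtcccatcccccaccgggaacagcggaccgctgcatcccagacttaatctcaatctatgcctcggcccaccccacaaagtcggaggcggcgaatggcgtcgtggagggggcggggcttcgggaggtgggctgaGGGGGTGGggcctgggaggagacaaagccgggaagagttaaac
Dnmt1, chr9:20952574-20952873, minus strand: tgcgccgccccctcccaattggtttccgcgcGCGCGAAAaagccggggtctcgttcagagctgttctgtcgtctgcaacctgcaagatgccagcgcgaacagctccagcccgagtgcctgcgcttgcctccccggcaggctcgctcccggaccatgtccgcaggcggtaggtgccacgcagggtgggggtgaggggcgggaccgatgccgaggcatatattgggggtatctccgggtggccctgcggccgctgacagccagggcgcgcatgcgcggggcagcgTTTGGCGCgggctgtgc
Uhrf1, chr17:56304063-56304362, plus strand: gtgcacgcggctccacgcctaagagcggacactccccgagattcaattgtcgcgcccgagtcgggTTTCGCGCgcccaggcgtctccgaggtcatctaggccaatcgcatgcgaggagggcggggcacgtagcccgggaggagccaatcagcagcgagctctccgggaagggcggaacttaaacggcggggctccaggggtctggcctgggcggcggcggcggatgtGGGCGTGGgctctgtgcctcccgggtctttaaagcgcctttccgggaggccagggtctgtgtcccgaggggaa
The 2 Dnmt3l windows shown each held 2 KLF boxes, on the strand opposite to the gene in 3 of these 4 matches, and the first Dnmt3l window of the table held none. The Idh1 window at chr1:65179093-65179392 held 1 KLF box and the other none. The Dnmt1 window shown held 2 E2F boxes, and the other 2 Dnmt1 windows held neither box. The Uhrf1 window shown held 1 E2F box and 1 KLF box, and the other Uhrf1 window and the single Dnmt3b window held 1 KLF box each. In the windows of Dnmt3a, Tet1, Tet2, Tet3 and Idh2 neither set of letters was present, and 2 of the 3 Dnmt3a windows overlap. A match is a description of these letters and not a binding site, and no match overlaps another.

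Expressed per kilobase of annotated exon, which allows levels of different genes to be set side by side, the copying pair and the isocitrate dehydrogenases stood far above the other members. At 24h the mean levels were 78.8 CPM per kb for Uhrf1, 67.6 for Dnmt1, 67.4 for Idh2 and 52.7 for Idh1. Tet3 followed at 9.85 CPM per kb, then Dnmt3a at 4.66, Dnmt3l at 4.63, Tet2 at 3.04, Dnmt3b at 1.67 and Tet1 at 0.0622. Neighbours in this order whose 24h libraries overlapped were Dnmt1 with Idh2, and Dnmt3a with Dnmt3l. The mean levels at 0h were 83.3 CPM per kb for Uhrf1, 71.9 for Idh1, 70.6 for Idh2, 66.1 for Dnmt1, 9.08 for Dnmt3l, 8.76 for Tet3, 3.95 for Dnmt3a, 2.79 for Tet2, 1.85 for Dnmt3b and 0.0443 for Tet1. Here the overlapping neighbours were Idh1 with Idh2, and Dnmt3l with Tet3. By mean level per kb, Dnmt3l thus stood below Tet3 and Dnmt3a at 24h, and above both at 0h. The exons of all annotated transcripts were joined for these lengths, which lowers the value of a gene with long or unused exons.

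**Figure D1:**
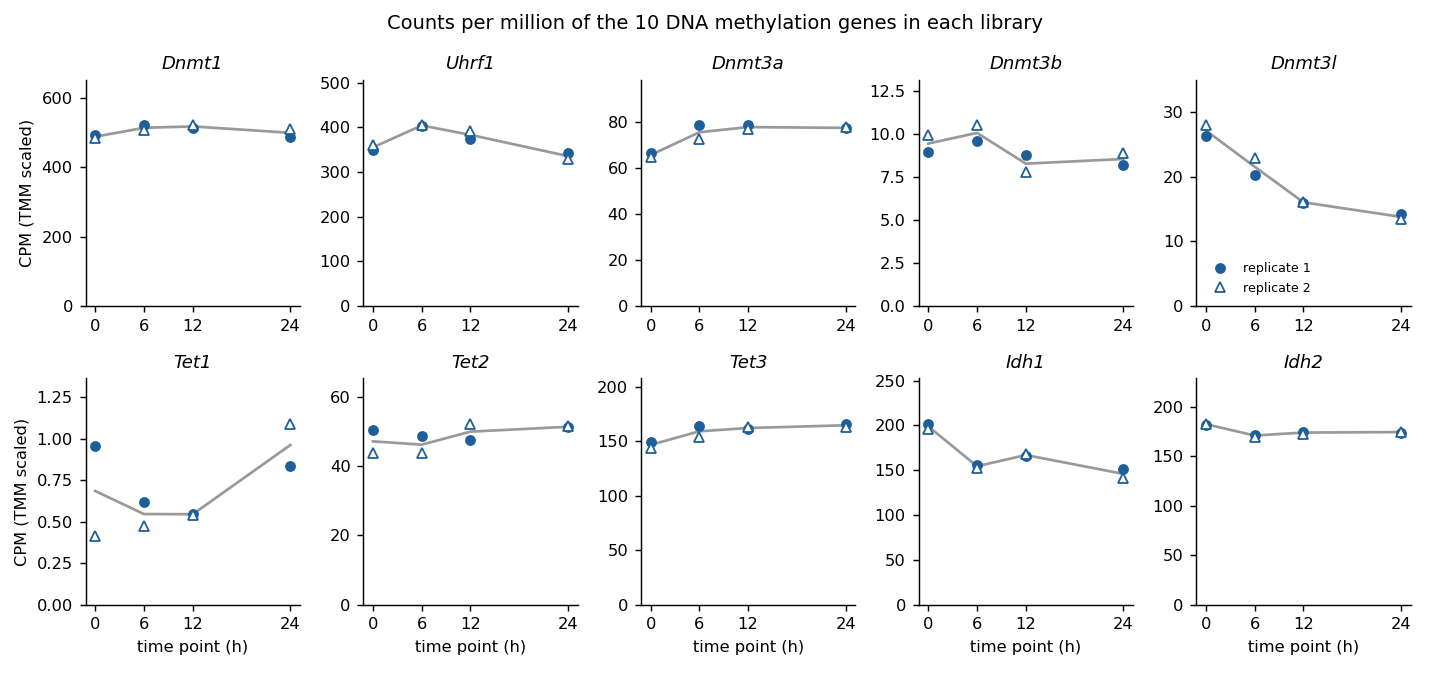
Level of each of the 10 genes in CPM (vertical axis, starting at 0, with its own scale in each panel) against the time point in hours; filled circles are replicate 1, open triangles replicate 2 and the line joins the means. Dnmt3l is lower at each later time, down to 14.2 and 13.4 CPM at 24h, against 26.3 and 28.0 CPM at 0h, and Uhrf1 is highest at 6h.

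Differences between times were tested with edgeR's quasi-likelihood fit of all genes in all 8 libraries, and calling a gene needed an adjusted p (Benjamini-Hochberg, over the 14263 genes tested) under 0.05. At 6h against 0h, 4 of the 10 genes were called, 2 higher and 2 lower, where 18.3% of all tested genes were called, 9.74% as higher and 8.58% as lower. At 12h against 0h, 5 of the 10 were called, 3 higher and 2 lower, with 43.7% of all genes called, 22.1% higher and 21.6% lower. At 24h against 0h, 4 of the 10 were called, 2 higher and 2 lower, with 50.9% of all genes called, 26.1% higher and 24.8% lower. The share of members called at 12h and 24h was therefore near or below that of all genes. Between 12h and 6h 1 member was called, lower at 12h, with 20.7% of all genes called, 10.9% higher and 9.79% lower. Between 24h and 12h 2 members were called, both lower at 24h, with 6.46% of all genes called, 3.41% higher and 3.04% lower. Tested for a change beyond 1.5-fold, 0, 0 and 1 member were called at 6h, 12h and 24h against 0h, with 1.49%, 4.21% and 6.68% of all genes called. The median log2 fold change over the 10 genes was 0.02, 0.01 and -0.02 at 6h, 12h and 24h against 0h, and over all tested genes it was -0.00, 0.00 and 0.02. With 2 libraries a time point, no exact permutation test of a single gene between 2 time points could reach 0.05. Each p therefore rests on the spread estimated over all genes, with a biological coefficient of variation of 3.1%.

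Dnmt1 (ENSMUSG00000004099, chr9:20907209-20959888, minus strand, mm10), the enzyme that copies methylation after replication, had the highest CPM of the 10 genes. Its libraries held 492 and 483 CPM (0h), 520 and 506 CPM (6h), 513 and 521 CPM (12h), and 487 and 510 CPM (24h). The 6h and 12h libraries lay above both 0h libraries, and those of 24h overlapped them. No comparison with 0h was called: the log2 fold change was 0.07 ± 0.04 (SE) at 6h (adjusted p = 0.24), 0.08 at 12h (adjusted p = 0.09) and 0.03 at 24h (adjusted p = 0.55). The 95% interval at 24h ran from -0.05 to 0.11. The 12h value was called in a fit of its 4 libraries alone (0.09, adjusted p = 0.012) and with a stricter filter on low counts (0.11, adjusted p = 0.026). With the correction for GC content and exon length the value at 24h was -0.10 and was called (adjusted p = 0.013).

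Uhrf1 (ENSMUSG00000001228, chr17:56303321-56323486, plus strand), which recognises hemimethylated DNA and brings DNMT1 to it, was highest at 6h and lowest at 24h. It held 350 and 360 CPM (0h), 403 and 405 CPM (6h), 374 and 392 CPM (12h), and 343 and 328 CPM (24h). The 6h and 12h libraries lay above both 0h libraries, and the 24h libraries lay below them. It rose at 6h by 0.19 ± 0.04 on the log2 scale against 0h (adjusted p = 0.001), and by 0.16 with the GC and length correction (adjusted p = 0.00053). At 12h the log2 fold change against 0h was 0.11 (adjusted p = 0.027), a call lost without replicate 1 or 2 of 0h or replicate 2 of 12h (adjusted p = 0.22, 0.069 and 0.32), and with the GC and length correction (0.08, adjusted p = 0.06). At 24h against 0h the log2 fold change was -0.08 (adjusted p = 0.10). Without replicate 1 or 2 of 6h, which belong to neither time, it was called (adjusted p = 0.033 and 0.047), and with the GC and length correction it was -0.12 and was called (adjusted p = 0.0035). Uhrf1 fell at 24h against 12h, by 0.19 ± 0.04 on the log2 scale (adjusted p = 0.0021), a call lost without replicate 2 of 12h or of 24h (adjusted p = 0.12 and 0.068).

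Genes of DNA replication and S phase are given beside this pair, because maintenance of methylation runs with replication. Of all tested genes, 24.8% were called lower and 26.1% higher at 24h against 0h, with a median log2 fold change of 0.02. In that comparison 14 of the 24 tested genes of the S phase list fell, 3 rose and 7 were not called. Their median log2 fold change was -0.16. With the GC and length correction 12 were called lower and 5 higher. Mcm3, a subunit of the replicative helicase, had 452 ± 4.55 CPM at 24h, against 535 ± 2.96 CPM at 0h, a log2 fold change of -0.25 (adjusted p = 2.4e-06). Gins2, another part of that helicase, had 28.2 ± 1.97 CPM at 24h, against 38.4 ± 0.307 CPM at 0h (log2 fold change -0.44, adjusted p = 2e-06). Cdt1, which loads the helicase, moved the other way, with 112 ± 0.911 CPM at 24h, against 89.5 ± 1.39 CPM at 0h (log2 fold change 0.32, adjusted p = 4.6e-07), as did Cdc45 at 151 ± 1.4 CPM at 24h, against 129 ± 0.142 CPM at 0h (log2 fold change 0.22, adjusted p = 3.9e-05). At 24h against 12h, 10 of the 24 fell, 0 rose and 14 were not called, where 3.04% of all tested genes were called lower and 3.41% higher. Uhrf1 was called lower in the same interval, though not without replicate 2 of 12h or of 24h. The list's counts in that interval were not taken again with libraries left out. In bulk RNA, fewer cells in a state and less RNA per cell cannot be told apart, here and for every gene below.

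At 24h against 0h, 26.1% of all tested genes were called higher and 24.8% lower. Of 9 other genes listed as partners of maintenance, 2 rose and 4 fell in that comparison, and 3 were not called. Leaving out 1 library gave 1 to 2 higher and 2 to 4 lower: 1 higher without replicate 1 of 0h or replicate 2 of 24h, and 2 lower without replicate 1 or 2 of 0h or replicate 1 of 24h. Uhrf2, the paralogue of Uhrf1, had 79.1 ± 0.811 CPM at 24h, against 63.6 ± 1.32 CPM at 0h, and rose by 0.32 ± 0.05 on the log2 scale (adjusted p = 3.2e-06). Its difference was not seen at 6h, where the log2 fold change was -0.04 (adjusted p = 0.65), and stood at 0.33 at 12h (adjusted p = 3.1e-06). Helb, a DNA helicase, had 62.1 ± 1.95 CPM at 24h, against 55.4 ± 2.08 CPM at 0h (adjusted p = 0.014). Pcna, the sliding clamp of replication, had 394 ± 6.4 CPM at 24h, against 444 ± 4.28 CPM at 0h, a log2 fold change of -0.17 (adjusted p = 0.00053) that was 0.03 with the GC and length correction. Pclaf, a PCNA-binding protein that helps recruit DNMT1, had 382 ± 5.3 CPM at 24h, against 424 ± 12.8 CPM at 0h (log2 fold change -0.15, adjusted p = 0.0018).

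Dnmt3a (ENSMUSG00000020661, chr12:3806007-3914443, plus strand), the main enzyme of new methylation in adult blood cells, was called higher at each later time. It held 66.7 and 64.8 CPM (0h), 78.7 and 72.6 CPM (6h), 78.8 and 77.0 CPM (12h), and 77.3 and 77.8 CPM (24h). Every later library lay above both 0h libraries, and the 3 later times overlapped each other. The log2 fold changes against 0h were 0.20 ± 0.05 at 6h (adjusted p = 0.0064), 0.24 at 12h and 0.24 at 24h (adjusted p = 0.00025 at both), whereas with the GC and length correction they were 0.06, 0.04 and -0.00 and none was called. The 6h call was also lost without replicate 2 of 0h (0.18, adjusted p = 0.11) or replicate 1 of 6h (0.14, adjusted p = 0.14). Dnmt3a has 16.642 kb of annotated exon, and the 318 tested genes with at least 15 kb had a median log2 fold change of 0.17 at 24h against 0h, with 53.5% of them called higher and 9.75% lower. Genes with under 5 kb of exon had a median of -0.03, with 20.5% called higher and 28.1% lower. The part of exon length and base composition in the Dnmt3a values was not tested beyond this correction.

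Dnmt3b (ENSMUSG00000027478, chr2:153649450-153687730, plus strand), the second enzyme of new methylation, was low. It held 8.95 and 9.90 CPM (0h), 9.59 and 10.5 CPM (6h), 8.75 and 7.77 CPM (12h), and 8.18 and 8.88 CPM (24h), from 178 to 267 counts a library. The 6h libraries overlapped those of 0h, and the 12h and 24h libraries lay slightly below both. It was not called, with log2 fold changes against 0h of 0.09 ± 0.12 at 6h (adjusted p = 0.65), -0.19 at 12h (adjusted p = 0.21) and -0.15 at 24h (adjusted p = 0.31). The 95% interval at 24h ran from -0.38 to 0.09.

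Dnmt3l (ENSMUSG00000000730, chr10:78041947-78063622, plus strand) encodes the partner without catalytic activity that binds unmethylated histone H3 tails and stimulates DNMT3A and DNMT3B, and is best known from germ cells and early embryos. Its libraries held 26.3 and 28.0 CPM (0h), 20.2 and 22.9 CPM (6h), 16.0 and 16.1 CPM (12h), and 14.2 and 13.4 CPM (24h), from 333 to 608 counts each. Each time lay wholly below the one before it, with no overlap between any of the 4 times. It fell by 0.33 ± 0.08 on the log2 scale at 6h against 0h (adjusted p = 0.0031), by 0.76 ± 0.08 at 12h (adjusted p = 2.5e-09) and by 0.97 ± 0.08 at 24h (adjusted p = 5.2e-12). The 6h call was lost without replicate 2 of 0h (-0.28, adjusted p = 0.076) or replicate 1 of 6h (-0.25, adjusted p = 0.073).

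Between neighbouring times, Dnmt3l fell by 0.43 ± 0.09 on the log2 scale at 12h against 6h (adjusted p = 0.00036), and was not called at 24h against 12h (-0.22 ± 0.09, adjusted p = 0.16). The GC and length correction moved its values little, to -0.31, -0.71 and -0.92 at 6h, 12h and 24h against 0h. It was the 1 member called against a fold of 1.5, at 24h. Among all genes called lower against 0h, 14.5% (178 of 1224) fell at least as far at 6h, 3.83% (118 of 3080) at 12h and 4.69% (166 of 3536) at 24h. Its exons share 67 bases (2.24% of their length) with those of Aire on the opposite strand. Aire had 0 to 2 counts in every library.

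**Figure D2:**
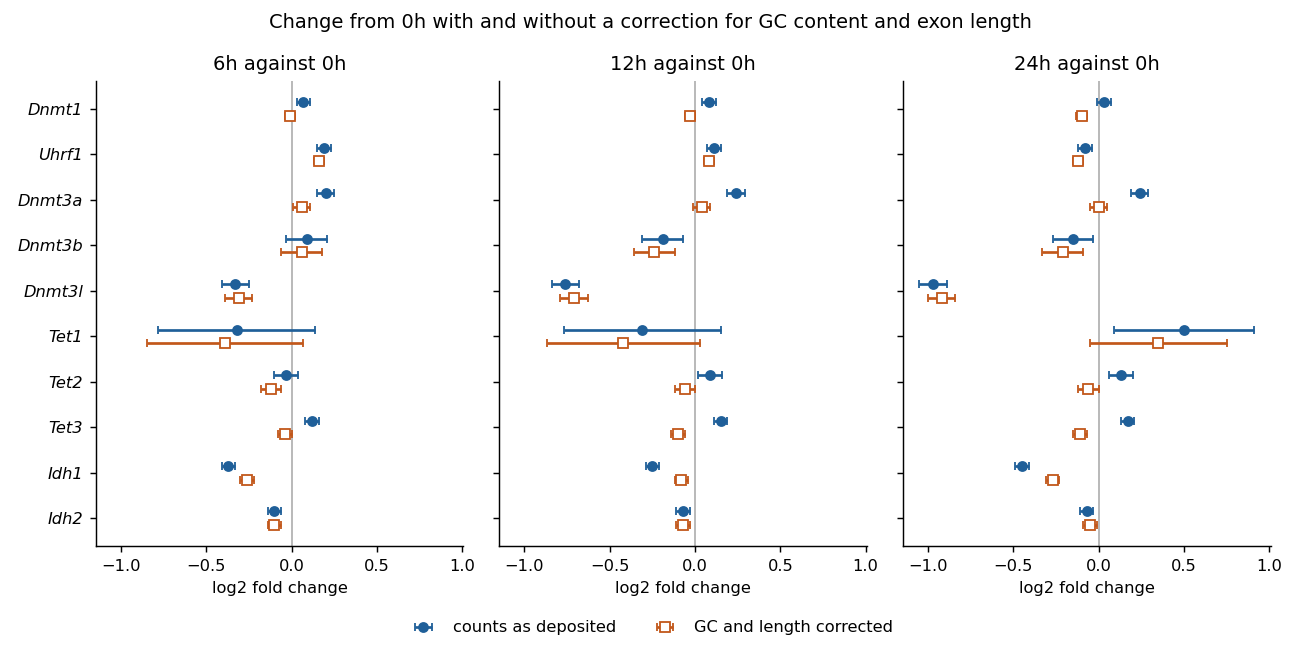
Log2 fold change against 0h (horizontal axis, one panel for each later time) of the 10 genes, with 1 SE as the bar; filled circles are from the counts as deposited and open squares from the fit corrected for GC content and exon length. Dnmt3l and Idh1 lie left of 0 in both fits at each time, whereas Dnmt3a lies at -0.00 and Tet3 at -0.11 in the corrected fit at 24h.

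The 5 protein-coding genes most like Dnmt3l over the 8 libraries were BC035044, Tnfsf14, Calr, Slpi and Cd34, out of 8577 with a mean of at least 10 CPM. Likeness was the root mean square difference in log2 CPM, each gene centred on its mean, which was 0.0558 for BC035044, 0.0565 for Tnfsf14, 0.0755 for Calr, 0.0777 for Slpi and 0.0784 for Cd34, where the median gene had 0.368. Cd34, a surface protein of blood stem and progenitor cells, had 116 ± 1.33 CPM at 24h, against 243 ± 1.55 CPM at 0h. Calr, a calcium-binding chaperone of the endoplasmic reticulum, had 1970 ± 23.8 CPM at 24h, against 3520 ± 129 CPM at 0h. Slpi, a secreted protease inhibitor, had 56.2 ± 5.89 CPM at 24h, against 112 ± 0.017 CPM at 0h. Tnfsf14, a cytokine of the tumour necrosis factor superfamily, had 10.5 ± 0.321 CPM at 24h, against 20.2 ± 0.892 CPM at 0h, and BC035044 had 54.7 ± 0.0479 CPM at 24h, against 110 ± 0.162 CPM at 0h. These genes were picked for the likeness, so it carries no test, and they share the 8 libraries with Dnmt3l.

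**Figure D3:**
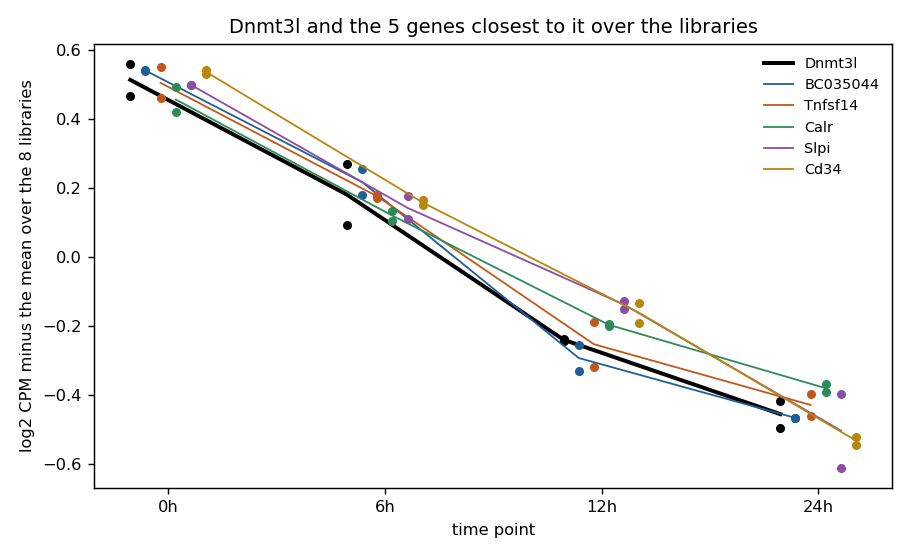
Log2 CPM minus each gene's mean over the 8 libraries (vertical axis) at the 4 time points, for Dnmt3l (black) and the 5 genes closest to it; points are libraries, lines join the means, and genes are shifted sideways to be seen. Every gene shown is lower at each later time, and Dnmt3l ends at -0.416 and -0.494 at 24h, against 0.468 and 0.559 at 0h.

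Of 15 genes listed as guides of new methylation through chromatin, 13 were tested, and Morc1 and Dppa3 did not pass the filter. At 24h against 0h, 3 of the 13 rose, 1 fell and 9 were not called. Among all tested genes 26.1% were called higher and 24.8% lower. Ehmt2, an enzyme that methylates histone H3 lysine 9, had 176 ± 7.17 CPM at 24h, against 152 ± 2.84 CPM at 0h, and its log2 fold change of 0.21 (adjusted p = 0.00013) was -0.08 with the GC and length correction. Smchd1, a silencing protein of the inactive X chromosome, had 145 ± 2.5 CPM at 24h, against 126 ± 2.26 CPM at 0h, and its log2 fold change of 0.20 (adjusted p = 0.00042) was -0.01 with that correction. Trim28, a corepressor of zinc finger proteins, had 459 ± 11.8 CPM at 24h, against 501 ± 11.2 CPM at 0h (log2 fold change -0.12, adjusted p = 0.0099), and its value was -0.33 with that correction. With the correction, 1 gene of the list was called higher and 4 lower, against 3 and 1 without it. The stricter filter gave 6 higher, and 0 were lower without replicate 2 of 0h or of 24h.

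Tet1 (ENSMUSG00000047146, chr10:62804570-62908996, minus strand), the TET enzyme of embryonic stem cells, was close to the detection limit. It held 0.955 and 0.414 CPM (0h), 0.62 and 0.472 CPM (6h), 0.547 and 0.543 CPM (12h), and 0.833 and 1.09 CPM (24h), from 9 to 27 counts a library. The 0h libraries differed from each other by more than any time means did, and every later time overlapped 0h. The 24h value against 0h was a log2 fold change of 0.50 ± 0.41 (adjusted p = 0.31), with a 95% interval from -0.29 to 1.30, so a change could not be detected at this depth.

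Tet2 (ENSMUSG00000040943, chr3:133463679-133545139, minus strand), the TET enzyme most often mutated in human myeloid leukaemia, held 50.4 and 43.8 CPM (0h), 48.5 and 43.8 CPM (6h), 47.6 and 52.2 CPM (12h), and 51.1 and 51.5 CPM (24h). The 6h and 12h libraries overlapped those of 0h, and the 24h libraries lay just above the higher one. Its log2 fold change was 0.13 at 24h against 0h (adjusted p = 0.11), with a 95% interval from -0.00 to 0.25, and with the GC and length correction it was -0.06. Without replicate 1 of 0h it was 0.22 and called (adjusted p = 0.021). Its exons share 43 bases with the antisense gene Gm42567, which had 0 to 2 counts.

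Tet3 (ENSMUSG00000034832, chr6:83362373-83459084, minus strand), known for oxidising methylated cytosine of the paternal genome after fertilisation, had the highest level of the TET genes per kilobase as well as in CPM. Its libraries held 149 and 144 CPM (0h), 164 and 154 CPM (6h), 161 and 163 CPM (12h), and 166 and 163 CPM (24h). All later libraries lay above both 0h libraries. The log2 fold change against 0h was 0.12 ± 0.04 at 6h (adjusted p = 0.054), 0.15 at 12h (adjusted p = 0.0065) and 0.17 at 24h (adjusted p = 0.0015), but -0.04, -0.10 and -0.11 with the GC and length correction, where the 12h and 24h values were called lower (adjusted p = 0.038 and 0.014). The 6h value was called without replicate 2 of 6h (0.17, adjusted p = 0.01), without a filter on low counts (0.13, adjusted p = 0.046) and with a stricter one (0.13, adjusted p = 0.03). The 12h call was lost without replicate 2 of 0h (adjusted p = 0.11) or replicate 2 of 12h (adjusted p = 0.077). Tet3 and Tet2 have 16.695 kb and 16.87 kb of annotated exon, so that both belong, like Dnmt3a, to the genes of at least 15 kb with a median of 0.17 at 24h.

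Idh1 (ENSMUSG00000025950, chr1:65158616-65186500, minus strand), the cytosolic and peroxisomal isocitrate dehydrogenase, fell at every later time. Its libraries held 202 and 196 CPM (0h), 156 and 153 CPM (6h), 166 and 168 CPM (12h), and 151 and 141 CPM (24h). All later libraries lay below both 0h libraries, with 12h above 6h and above 24h. It fell by 0.37 ± 0.04 on the log2 scale at 6h against 0h (adjusted p = 4.5e-08), by 0.25 at 12h (adjusted p = 1.3e-05) and by 0.45 at 24h (adjusted p = 8.7e-11), which is 1.36-fold lower. With the GC and length correction the values were -0.26 (adjusted p = 2.3e-06), -0.08 (adjusted p = 0.084) and -0.27 (adjusted p = 2.7e-07), so the 12h call was lost.

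At 24h against 12h Idh1 fell by 0.20 on the log2 scale (adjusted p = 0.0034), a call lost without replicate 2 of 12h or of 24h (adjusted p = 0.074 and 0.13). At 12h against 6h it differed by 0.12 (adjusted p = 0.058), which was 0.18 and called with the correction (adjusted p = 0.00073). Of all genes called lower against 0h, 10.6% fell at least as far as Idh1 at 6h, 51.8% at 12h and 22.8% at 24h.

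Idh2 (ENSMUSG00000030541, chr7:80094846-80115392, minus strand), the mitochondrial enzyme of the same reaction, was not called. It held 182 and 183 CPM (0h), 172 and 170 CPM (6h), 175 and 173 CPM (12h), and 174 and 175 CPM (24h). All later libraries lay slightly below both 0h libraries. The log2 fold changes against 0h were -0.10 ± 0.04 at 6h (adjusted p = 0.099), -0.07 at 12h (adjusted p = 0.15) and -0.07 at 24h (adjusted p = 0.18), with a 95% interval at 24h from -0.15 to 0.01. Whether the difference between Idh1 and Idh2 passes a test of its own was not tested.

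A further 17 listed enzymes make or use 2-oxoglutarate, succinate, fumarate or 2-hydroxyglutarate. Of these, 9 fell, 3 rose and 5 were not called at 24h against 0h, with a median log2 fold change of -0.18. Over all tested genes the median was 0.02, with 24.8% called lower and 26.1% higher. Idh3a, a subunit of the NAD-dependent mitochondrial isocitrate dehydrogenase, had 153 ± 0.544 CPM at 24h, against 191 ± 2.38 CPM at 0h (log2 fold change -0.31, adjusted p = 7.5e-08). Sdhd, a membrane anchor of succinate dehydrogenase, had 174 ± 1.08 CPM at 24h, against 235 ± 7.27 CPM at 0h (log2 fold change -0.44, adjusted p = 5.9e-11), and -0.20 with the GC and length correction. Glud1, which makes 2-oxoglutarate from glutamate, had 265 ± 9.59 CPM at 24h, against 237 ± 0.456 CPM at 0h (log2 fold change 0.16, adjusted p = 0.0014). D2hgdh, which removes D-2-hydroxyglutarate, had 27.7 ± 0.589 CPM at 24h, against 23.7 ± 0.889 CPM at 0h (log2 fold change 0.23, adjusted p = 0.01). With the GC and length correction 8 of the 17 were called lower and 3 higher, and with DESeq2 or without replicate 2 of 0h 1 was called higher.

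For the supply of the methyl donor S-adenosylmethionine, 5 of 10 genes fell, 3 rose and 2 were not called at 24h against 0h. Among all tested genes 24.8% were called lower and 26.1% higher. Mat2a, which makes the donor, had 270 ± 3.05 CPM at 24h, against 366 ± 10.2 CPM at 0h, and fell by 0.44 ± 0.04 on the log2 scale (adjusted p = 2e-11). Ahcy, which clears the product S-adenosylhomocysteine, had 226 ± 1.84 CPM at 24h, against 271 ± 0.982 CPM at 0h (log2 fold change -0.26, adjusted p = 1.7e-06), and -0.15 with the GC and length correction. Ahcyl2, a relative of Ahcy, moved the other way and had 22.5 ± 0.503 CPM at 24h, against 16.9 ± 0.00481 CPM at 0h (log2 fold change 0.41, adjusted p = 6.7e-05), and 0.19 with that correction.

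At 24h against 0h, 26.1% of all tested genes were called higher and 24.8% lower. Of 11 genes listed as readers of methylated CpG, 5 rose, 2 fell and 4 were not called in that comparison. With the GC and length correction these counts were 2 higher and 4 lower, with DESeq2 1 and 2, and without replicate 1 of 24h 2 and 3. Without replicate 1 or 2 of 0h 3 were called higher, and without replicate 2 of 24h 1 was called lower. Mbd6, whose domain is not known to bind methylated DNA and which partners a histone H2A deubiquitinase, had 106 ± 2.93 CPM at 24h, against 65.9 ± 0.236 CPM at 0h, a log2 fold change of 0.68 ± 0.05 (adjusted p = 1.1e-13) that was 0.37 with the correction. Mbd4, a glycosylase that repairs deaminated methylcytosine, had 21.5 ± 0.484 CPM at 24h, against 17.2 ± 2.88 CPM at 0h (log2 fold change 0.32, adjusted p = 0.0038). Mbd3, a subunit of the NuRD complex, had 143 ± 16.9 CPM at 24h, against 178 ± 1.55 CPM at 0h (log2 fold change -0.32, adjusted p = 6.3e-06). Mbd1, a repressor that binds methylated CpG, had 79.0 ± 4.8 CPM at 24h, against 88.5 ± 1.32 CPM at 0h (log2 fold change -0.16, adjusted p = 0.0081).

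Oxidised methylcytosine is removed by base excision repair. Of 13 genes listed for that step 4 rose, 5 fell and 4 were not called at 24h against 0h. The shares over all tested genes were 26.1% higher and 24.8% lower. Gadd45a, a stress-response gene that has been linked to active demethylation, had 12.0 ± 0.472 CPM (6h), 19.1 ± 1.92 CPM (12h) and 30.0 ± 0.981 CPM (24h), against 9.3 ± 0.711 CPM (0h). It rose by 1.69 ± 0.09 on the log2 scale at 24h against 0h (adjusted p = 1.6e-17). Gadd45b, of the same family, had 20.2 ± 0.651 CPM at 24h, against 27.4 ± 2.28 CPM at 0h, and fell by 0.44 ± 0.08 (adjusted p = 1.6e-05). Neil3, a DNA glycosylase, had 43.5 ± 2.9 CPM at 24h, against 29.4 ± 0.796 CPM at 0h (log2 fold change 0.56, adjusted p = 6.2e-09). Apex1, which cuts the site left without a base, had 16.1 ± 3.3 CPM at 24h, against 24.9 ± 0.996 CPM at 0h (log2 fold change -0.63, adjusted p = 6.9e-07), and -0.42 with the GC and length correction.

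Of 7 genes listed as TET partners or CXXC proteins, 6 were tested, and Cxxc4 did not pass the filter. Among them 1 rose, 1 fell and 4 were not called at 24h against 0h. The shares over all tested genes were 26.1% higher and 24.8% lower. Ogt, which adds N-acetylglucosamine to proteins and binds TET2 and TET3, had 284 ± 5.32 CPM at 24h, against 208 ± 6.61 CPM at 0h, and rose by 0.45 ± 0.04 on the log2 scale (adjusted p = 6.1e-11). It was called higher at 6h as well, with a log2 fold change of 0.28 (adjusted p = 9.3e-06). Ppp2ca, a catalytic subunit of protein phosphatase 2A, had 295 ± 0.655 CPM at 24h, against 316 ± 5.29 CPM at 0h (log2 fold change -0.10, adjusted p = 0.038), and 0 of the list were called lower when any 1 library of 0h or 24h was left out.

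In each of these lists except the TET partners, fewer genes were called at 6h against 0h than at 24h against 0h. The guides of new methylation had 0 called at 6h, and 4 higher and 0 lower at 12h against 0h. For the maintenance partners the counts were 0 higher and 1 lower at 6h, and 3 higher and 1 lower at 12h. The readers had 2 higher and 1 lower at 6h, and 3 higher and 2 lower at 12h, and the base excision genes 1 higher and 3 lower at 6h, and 4 higher and 5 lower at 12h. Methyl donor supply had 1 higher and 1 lower at 6h, and 2 higher and 5 lower at 12h. The enzymes around 2-oxoglutarate had 1 higher and 4 lower at 6h, and 2 higher and 10 lower at 12h. DNA replication and S phase had 2 higher and 2 lower at 6h, and 6 higher and 5 lower at 12h. TET partners had 2 higher and 0 lower at 6h, and 1 higher and 1 lower at 12h. Of the 2 called higher at 6h, 1 had at most 14 counts in any library. The shares called over all genes are those given for the 10 members, 18.3% at 6h, 43.7% at 12h and 50.9% at 24h. Those called higher were 9.74%, 22.1% and 26.1% in that order, and those called lower 8.58%, 21.6% and 24.8%.

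**Figure D4:**
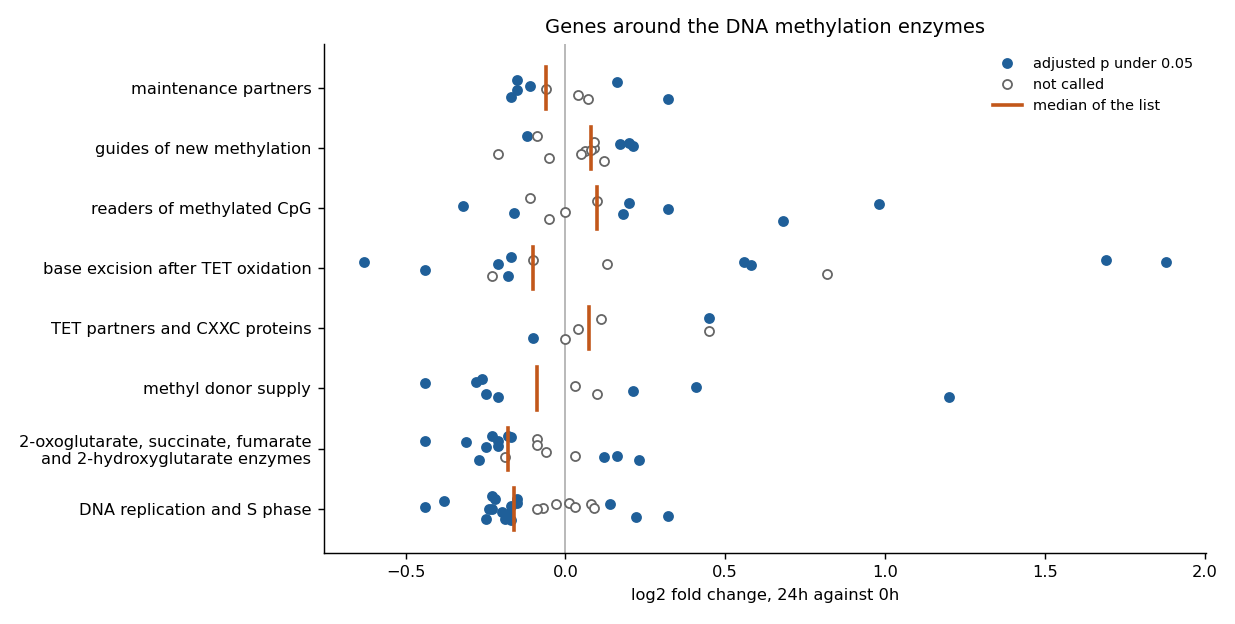
Log2 fold change at 24h against 0h (horizontal axis) of each tested gene of the 8 lists; filled points were called at an adjusted p under 0.05, open points were not, and the vertical bar is the list's median. The base excision list spans both directions, from Apex1 at -0.63 to values above that of Gadd45a at 1.69, and the S phase list has a median of -0.16.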

How the data were processed

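RNA was measured in 8 libraries, 2 each at 0h, 6h, 12h and 24h (the labels' time points). The values the authors deposited are raw counts per Ensembl gene, for which the submitters' processing notes name STAR, HTSeq 2.0.3, SAMtools 1.3 and the genome build mm10. The sources used here do not give the annotation release, strand setting or filters, so reads of overlapping antisense genes are not told apart. Gene counts do not separate isoforms.

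Gene names came from GENCODE M21, which matched 46574 of 47069 IDs, and 5 summary rows were left out (no-gene reads 5.25% to 9.272%, ambiguous reads 5.002% to 5.502%). Genes were kept with filterByExpr, scaled by TMM and tested two-sided in edgeR 4.0.16 (R 4.3.3) in 1 quasi-likelihood fit of all libraries, with 4 residual degrees of freedom, Benjamini-Hochberg adjusted p and a threshold of 0.05. The SE is the log2 fold change over the square root of F, and 95% intervals come from it. No pair of replicates agreed within sampling noise (chi-square over its degrees of freedom 1.86 to 3.93).

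The members and lists were chosen with earlier results of these data known. Named genes are the 10 members, Klf4, up to 2 list genes a direction with the smallest adjusted p at 24h, any gene of a list with fewer than 3 called, and the 5 genes closest to Dnmt3l. Some genes that this rule or the lists name are not reported here. Alternatives were DESeq2 1.42.0, its size factors in edgeR, leaving the filter out, a stricter filter (mean log2 CPM of at least 1), a replicate block, fitting the 4 libraries of each comparison alone, a fold of 1.5, GC and length corrections (known for 14212 of 14263 genes) and leaving out each library. The pipeline was tested on simulated data, drawn with a spread of 3.1% for every gene and no trend with GC content or exon length. That test therefore cannot speak to such a trend, or to genes that vary more.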

Additional observations from a re-analysis of the deposited data

How the results depend on the processing

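Dnmt3l at 12h and 24h, Idh1 at 6h and 24h, and Uhrf1 at 6h kept their direction and call against 0h. This held under all alternatives except the test against a fold of 1.5, where Dnmt3l at 24h was the 1 call. Genes called were 1558, 1485 and 417 with DESeq2 at 6h against 0h, 12h against 6h and 24h against 12h, and 213, 600, 953, 85 and 41 against a fold of 1.5 in the order 6h, 12h and 24h against 0h, 12h against 6h and 24h against 12h. Members called were then 0, 0, 1, 0 and 0. With the GC and length correction, 2 members were called at 12h and 5 at 24h against 0h, all of them lower. Its centred form called 4 and 6, again all lower. At 6h against 0h, 1 member (Uhrf1) was called higher and 2 lower with the correction, and 1 (Uhrf1) higher and 3 lower with its centred form. Without correction, 3 were called higher and 2 lower at 12h, and 2 higher and 2 lower at 24h. Members called at 12h against 6h were 2 with that correction, 4 with its centred form and 2 with the stricter filter. Of the genes called at 6h against 0h, 53.2% were higher, and 36.3% with the centred correction. Of the genes called at 24h against 12h, 52.9% were higher, and 41.4% without a filter.

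Leaving out 1 library at a time, genes called were 1319 to 2715 at 6h against 0h (1319 without replicate 2 and 1702 without replicate 1 of 0h), 4627 to 6627 at 12h against 0h, 5722 to 7589 at 24h against 0h, 1296 to 3061 at 12h against 6h (1296 without replicate 2 and 1853 without replicate 1 of 12h), and 373 to 1256 at 24h against 12h (373 and 386 without replicate 1 and 2 of 12h, 449 without replicate 2 of 24h). Members called were 2 to 5 at 6h (2 without replicate 2 of 0h or replicate 1 of 6h), 3 to 5 at 12h (3 without replicate 2 of 0h or of 12h), 4 to 5 at 24h against 0h, 1 to 1 at 12h against 6h, and 0 to 2 at 24h against 12h (0 without replicate 2 of 12h or of 24h).

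Signs turned mostly in small differences, and the cause was not tested. With the GC and length correction these were Dnmt1 at 6h, 12h and 24h against 0h and 12h against 6h (-0.01, -0.03, -0.10 and -0.03), Tet3 in the same comparisons and at 24h against 12h (-0.04, -0.10, -0.11, -0.05 and -0.01), Tet2 at 12h and 24h (-0.06 and -0.06), Dnmt3a at 24h and at 12h against 6h (-0.00 and -0.02) and Tet1 at 12h against 6h (-0.03). With the centred form they were Dnmt1 (-0.03, -0.07, -0.14 and -0.04), Tet3 (-0.07, -0.13, -0.15, -0.06 and -0.02), Tet2 at 12h, at 24h and at 24h against 12h (-0.10, -0.10 and -0.00), Dnmt3a (-0.04 and -0.03) and Tet1 (-0.04) in the same order. In that form Idh2 was called lower at 6h, 12h and 24h against 0h (-0.13, -0.10 and -0.09). Idh2 at 24h against 12h was -0.00 with DESeq2 and with its size factors, and -0.01 without a filter.

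Leaving out 1 library turned the sign of uncalled values. At 6h against 0h Tet1 ran from -0.82 to 0.38 and Tet2 from -0.13 to 0.07. At 12h against 0h Tet1 ran from -0.81 to 0.39 and Tet2 from -0.02 to 0.18, and at 24h against 0h Dnmt1 ran from -0.01 to 0.06. At 12h against 6h Dnmt1 ran from -0.01 to 0.03, Dnmt3a from -0.01 to 0.10, Tet1 from -0.19 to 0.20 and Tet3 from -0.02 to 0.07. At 24h against 12h Dnmt3a ran from -0.02 to 0.01, Dnmt3b from -0.04 to 0.13, Tet2 from -0.03 to 0.11 and Idh2 from 0.00 to 0.01. A library left alone at its time was assumed to vary like the others.

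Replicates with the same number did not vary together (correlations of their deviations -0.017 to 0.021), and a replicate block gave 2495, 6116, 7160, 2812 and 836 genes called and changed no member's call. Depth limits Tet1 most, at 9 to 27 counts, and the stricter filter dropped it.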

Other observations

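Ratios of counts within a library need no scaling between libraries, and the pairs below were chosen after their values were seen. Such ratios still hold any trend with exon length or GC content, whose part in them was not tested. Dnmt3l has 2.988 kb of annotated exon and Dnmt3a 16.642 kb. Dnmt3l stood to Dnmt3a at a ratio of 0.394 and 0.432 (0h), 0.257 and 0.315 (6h), 0.203 and 0.209 (12h), and 0.184 and 0.173 (24h). Idh1 stood to Idh2 at 1.11 and 1.07 (0h), 0.909 and 0.902 (6h), 0.953 and 0.975 (12h), and 0.869 and 0.806 (24h). Uhrf1 stood to Dnmt1 at 0.710 and 0.745 (0h), 0.776 and 0.800 (6h), 0.728 and 0.753 (12h), and 0.705 and 0.644 (24h).

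Dnmt3a and Tet3, which have nearly the same exon length, had a ratio of counts of 0.449 and 0.450 (0h), 0.478 and 0.472 (6h), 0.491 and 0.471 (12h), and 0.465 and 0.479 (24h). Tet3 stood to Tet2 at 2.95 and 3.28 (0h), 3.39 and 3.51 (6h), 3.38 and 3.13 (12h), and 3.25 and 3.16 (24h).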
